A study of Mus musculus with 4 samples.

Results

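The genes described here make, sense, move, store and export cholesterol in the mouse pituitary. They are 30 listed genes, all found by symbol among the 55357 genes of the deposited gene table, each with 1 identifier. The list holds 17 synthesis enzymes, the acetoacetyl-CoA thiolase Acat2, 5 genes of sterol sensing, 4 of intracellular transport and storage, and 3 of export and its nuclear receptors.

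Whole pituitaries of male mice were dissociated with enzyme and profiled with 10x Genomics 3′ single-cell libraries, 2 for the high-fat diet (HFD) group and 2 for the normal diet (ND) group. Feeding began at an age of 4 weeks and went on for 12 weeks, and 3 pituitaries were pooled per library. A gonadotroph line, Lbt2, is named in the labels of every library, although the tissue and protocol describe the whole gland, and gonadotroph-like cells were 963 of the 36207 cells kept. The deposited matrix joins all libraries, and its barcodes end in a number from 1 to 4 that no file or label ties to a library. No cell was given a diet, the matrix was treated as 1 sample without replicates, and no test was run. The 4 barcode sets are given by number only, and 156 barcode sequences occurred in more than 1 set. Median depth per barcode was 7375, 8070.5, 7584.5 and 7167 UMIs (unique molecular identifiers, counted transcripts) in sets 1 to 4.

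Cholesterol is built from acetyl-CoA through mevalonate, isoprenoids, squalene and lanosterol in the cytosol and endoplasmic reticulum. When membrane sterol is low, the escort protein Scap carries the SREBP precursors, encoded by Srebf1 and Srebf2, to the Golgi apparatus, where they are cut into transcription factors for the synthesis genes. Insig proteins hold Scap back when sterols are plentiful. Oxysterols activate the LXR receptors, encoded by Nr1h3 and Nr1h2, which raise the sterol exporter Abca1.

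The promoters of 4 members are shown as examples, and they include every member with a match to the first motif below. Hmgcs1, Msmo1 and Idi1 are among the genes that varied together between single somatotrophs, and Srebf2 encodes the SREBP that drives synthesis genes. RefSeq windows (GRCm38.p6) of 250 bases before to 50 after a gene start were found for 25 of the 30 members. Both strands were searched for TCACNCCA, letters within the classical sterol regulatory element, and for CCAAT, the site of NF-Y, a factor known to act with SREBP. The motifs can share their letters CCA, but do not in these windows. Capitals mark both motifs, and each window reads 5′ to 3′ on the strand of its gene.
Hmgcs1, chr13:119690101-119690400, plus strand: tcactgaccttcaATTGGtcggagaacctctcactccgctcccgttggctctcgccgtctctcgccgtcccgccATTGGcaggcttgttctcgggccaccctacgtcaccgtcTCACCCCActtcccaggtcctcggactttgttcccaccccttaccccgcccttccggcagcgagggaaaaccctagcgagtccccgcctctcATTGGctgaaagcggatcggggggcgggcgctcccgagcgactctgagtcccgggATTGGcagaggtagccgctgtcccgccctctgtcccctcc
Msmo1, chr8:64733529-64733828, minus strand: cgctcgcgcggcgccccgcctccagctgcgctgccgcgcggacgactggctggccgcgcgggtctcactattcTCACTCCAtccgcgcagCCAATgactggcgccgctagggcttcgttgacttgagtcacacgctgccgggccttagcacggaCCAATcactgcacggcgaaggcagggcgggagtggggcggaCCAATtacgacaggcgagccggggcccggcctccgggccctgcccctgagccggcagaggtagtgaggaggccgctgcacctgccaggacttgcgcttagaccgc
Srebf2, chr15:82147019-82147318, plus strand: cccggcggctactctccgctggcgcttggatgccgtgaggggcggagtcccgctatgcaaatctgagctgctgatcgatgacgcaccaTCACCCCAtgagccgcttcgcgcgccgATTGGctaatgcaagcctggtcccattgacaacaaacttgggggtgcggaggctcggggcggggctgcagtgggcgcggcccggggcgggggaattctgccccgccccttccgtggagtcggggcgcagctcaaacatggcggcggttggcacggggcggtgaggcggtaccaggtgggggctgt
Idi1, chr13:8885356-8885655, plus strand: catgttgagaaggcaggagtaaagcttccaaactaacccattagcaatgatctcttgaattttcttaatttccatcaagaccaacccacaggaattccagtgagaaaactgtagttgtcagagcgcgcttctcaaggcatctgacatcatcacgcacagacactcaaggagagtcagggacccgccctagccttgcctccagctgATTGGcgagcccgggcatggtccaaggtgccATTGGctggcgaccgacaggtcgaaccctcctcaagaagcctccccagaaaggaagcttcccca
The TCACNCCA match begins 137 bases before the start in Hmgcs1, 177 in Msmo1 and 162 in Srebf2, and the Idi1 window holds none. These 3 were the members with a match among 25, and 4.97% of 27025 genes had one. Lss, Cyp51, Sc5d, Hsd17b7, Dhcr7, Acat2 and Insig1, which also varied together between somatotrophs, had windows without a match. CCAAT was in 20 of the 25 members and in 41.1% of all genes. A match describes letters in a window and shows no binding.

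Somatotroph-like cells, which make growth hormone, had the highest summed level of the 17 synthesis enzymes when 7 hormone genes were left out of library size. The sum was 1614 UMIs per 1000000 (CPM; 95% Poisson interval 1605 to 1622) in 13201 somatotroph-like cells. Sets 1 to 4 gave 1381, 1220, 1934 and 1937 CPM. Thyrotroph-like cells, which make thyrotropin, followed at 1357 CPM, with 1424, 1076, 1438 and 1657 CPM in the sets. Melanotroph-like cells of the intermediate lobe had 1283 CPM, with 1198, 1237, 1451 and 1342 CPM. The ranges of these 3 classes over the sets overlap, and thyrotroph-like cells were above somatotroph-like cells in set 1 and melanotroph-like cells in set 2. Lactotroph-like cells, which make prolactin, had 741 CPM and 681 to 772 CPM over the sets, below somatotroph-like cells in each set. Corticotroph-like cells had 917 CPM, gonadotroph-like cells 744 CPM and stem or folliculostellate-like cells 703 CPM. The lowest sums were 329 CPM in macrophage or microglia-like cells and, in lymphocytes of the T or NK cell-like class, 294 CPM.

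The order at the top turned with the library size. Hormone genes took 44.3% of UMIs in somatotroph-like cells, 13.6% in thyrotroph-like cells and 20.9% in melanotroph-like cells. With hormone genes in library size the sum was 898 CPM in somatotroph-like cells, 1173 CPM in thyrotroph-like cells and 1015 CPM in melanotroph-like cells. Hormone genes also took 3.93% of UMIs in the T or NK cell-like class and 8.08% in endothelial-like cells, which are not known to make them. In these classes 3 T or NK cell-like and 34 endothelial-like cells had at least 25% of their UMIs from Gh. The part of free RNA, doublets or misplaced cells in the member levels of those classes was not tested.

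**Figure D1:**
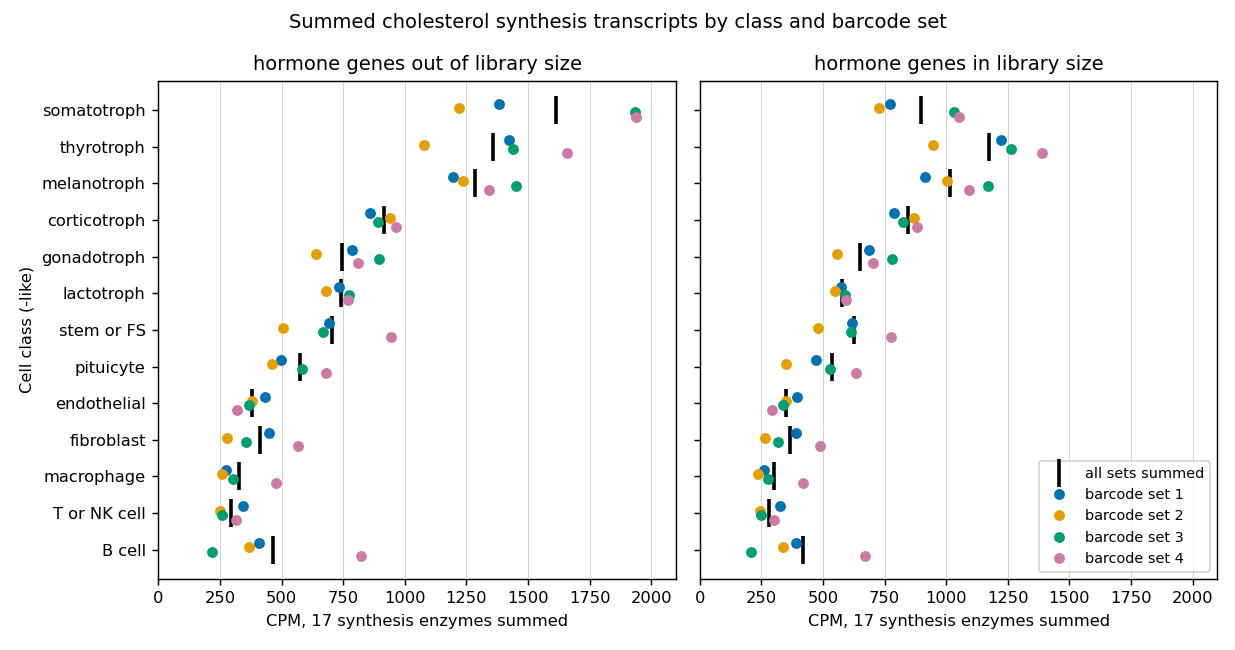
Summed level of 17 cholesterol synthesis enzymes (x axis, CPM) in 13 marker-named cell classes (y axis), with hormone genes out of library size (left) and in it (right). Points are barcode sets and bars the pooled value; somatotroph-like cells stand at 1614 CPM on the left and 898 CPM on the right, where thyrotroph-like cells reach 1173 CPM.

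All further class levels are CPM without hormone genes in library size, and they are compared between classes, never between genes. Hmgcs1, the synthase that makes HMG-CoA, had 324, 274, 553 and 520 CPM in somatotroph-like cells of sets 1 to 4. It had 271, 240, 396 and 370 CPM in thyrotroph-like cells and 124, 108, 141 and 141 CPM in lactotroph-like cells. Somatotroph-like cells stood above both in every set. Of the 12 classes compared set by set below, however, they were the highest in only 3 sets. Idi1, the isomerase that makes dimethylallyl diphosphate, had 118, 71.4, 179 and 190 CPM in somatotroph-like cells, and 122, 73.5, 74.1 and 144 CPM in thyrotroph-like cells. These classes thus changed order between sets. Pmvk, phosphomevalonate kinase, was highest in thyrotroph-like cells in all sets, at 128 CPM against 90.4 CPM in somatotroph-like cells. The remaining kinase and decarboxylase of the mevalonate steps, Mvk and Mvd, had 11.1 and 8.44 CPM in somatotroph-like cells and no class led for them in all sets.

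Fdps, farnesyl diphosphate synthase, had 57.6 CPM in somatotroph-like and 58.1 CPM in melanotroph-like cells, with overlapping intervals. Fdft1, which makes squalene, had 91.6 CPM (85.9 to 97.5) in gonadotroph-like cells, against 81.7 CPM (79.7 to 83.7) in somatotroph-like cells. Sqle, squalene epoxidase, had 98.8 CPM in somatotroph-like, 103 CPM in thyrotroph-like and 98.5 CPM in melanotroph-like cells, whose intervals overlap, against 48.5 CPM in lactotroph-like cells. Lss, which closes the lanosterol rings, had 49.8, 35.7, 68.8 and 79.0 CPM in somatotroph-like cells of the sets, against 15.8, 14.4, 14.7 and 17.4 CPM in lactotroph-like cells. The lowest somatotroph-like value lay above the highest lactotroph-like value. Thyrotroph-like cells were closer, with a pooled 42.9 CPM of Lss against 58.0 CPM in somatotroph-like cells. Somatotroph-like cells were the highest of the 12 classes compared set by set below in only 3 sets.

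Of the enzymes after lanosterol, Cyp51, the 14-demethylase, had 82.4 CPM in somatotroph-like and 86.8 CPM in melanotroph-like cells, and Sc5d, the C5 desaturase, had 86.1 and 92.0 CPM there. Msmo1, the C4-methyl oxidase, had 356 CPM in somatotroph-like cells, 271 CPM in the thyrotroph-like and in the melanotroph-like class, and lactotroph-like cells had 128 CPM. In set 1, however, thyrotroph-like cells (311 CPM) stood above somatotroph-like cells (299 CPM). Dhcr7, which makes cholesterol from 7-dehydrocholesterol, had 39.7, 38.4, 44.9 and 51.6 CPM in somatotroph-like cells, the highest class in each set, and 32.9 CPM in thyrotroph-like cells. Hsd17b7, the 3-ketosteroid reductase, had 33.0, 31.1, 27.0 and 32.3 CPM in melanotroph-like cells, above somatotroph-like cells (15.5, 11.6, 22.2 and 29.7 CPM) in each set. Ebp, the sterol isomerase, had 49.4 CPM in somatotroph-like, 50.3 CPM in lactotroph-like and 31.4 CPM in gonadotroph-like cells, and 59.0 CPM in macrophage or microglia-like cells. Nsdhl, which removes C4 carbons, had 11.2 CPM in somatotroph-like and 19.2 CPM in thyrotroph-like cells. Tm7sf2, the C14 reductase, had 4.58 CPM in somatotroph-like and 10.7 CPM in melanotroph-like cells. Acat2 had 32.6 CPM in melanotroph-like, 32.2 CPM in pituicyte-like and 23.4 CPM in somatotroph-like cells.

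Among the sterol sensing genes, Srebf1, which encodes SREBP-1, had 504 CPM (468 to 541) in pituicyte-like cells, the glia of the posterior lobe. Sets 1 to 4 gave 576, 167, 429 and 475 CPM, where set 2 held only 6 of the 248 such cells. Every other class with its own values in the plot of levels by class was at or below 41.9 CPM, the value of thyrotroph-like cells, and somatotroph-like cells had 31.8 CPM. Insig2 was also highest in pituicyte-like cells, at 184 CPM against 118 CPM in somatotroph-like cells. Insig1, itself a known SREBP target, had 241 CPM in somatotroph-like, 228 CPM in melanotroph-like, 186 CPM in pituicyte-like and 145 CPM in lactotroph-like cells. Srebf2 had 98.0 CPM in thyrotroph-like and 89.2 CPM in both somatotroph-like and melanotroph-like cells, with overlapping intervals. Scap had 55.5 CPM in somatotroph-like and 33.4 CPM in lactotroph-like cells.

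Of the transport genes, Npc2, the luminal protein that hands sterol from lysosomes to Npc1, had 1439 CPM in pituicyte-like and 1357 CPM in macrophage or microglia-like cells. Among endocrine classes it had 585 CPM in lactotroph-like cells, with 547 to 642 CPM over the sets, against 238 CPM in somatotroph-like cells. Npc1, the lysosomal membrane transporter, was nearly level at 77.5 CPM in somatotroph-like, 78.9 CPM in macrophage or microglia-like and 66.8 CPM in lactotroph-like cells. Stard4, a soluble sterol carrier, had 53.4 CPM in somatotroph-like, 59.6 CPM in thyrotroph-like and 56.4 CPM in melanotroph-like cells, against 19.5 CPM in lactotroph-like cells. Soat1, which esterifies cholesterol for storage, had 137 CPM in both gonadotroph-like and macrophage or microglia-like cells and 74.6 CPM in somatotroph-like cells.

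Abca1 had 291 CPM in macrophage or microglia-like, 253 CPM in endothelial-like, 207 CPM in pituicyte-like and 200 CPM in fibroblast-like cells (95% interval 179 to 223). Somatotroph-like cells had 127, 93.2, 129 and 127 CPM of Abca1 in the sets, above lactotroph-like cells (49.1, 43.2, 50.2 and 48.9 CPM) in each. Nr1h3, which encodes LXR-alpha, had 39.1 CPM (30.1 to 49.9) in fibroblast-like cells, from 64 UMIs, against 18.8 CPM in pituicyte-like, 14.4 CPM in endothelial-like and 13.4 CPM in somatotroph-like cells. Nr1h2, which encodes LXR-beta, had 70.7 CPM in the T or NK cell-like class, the highest pooled value, and 46.2 CPM in somatotroph-like cells.

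**Figure D2:**
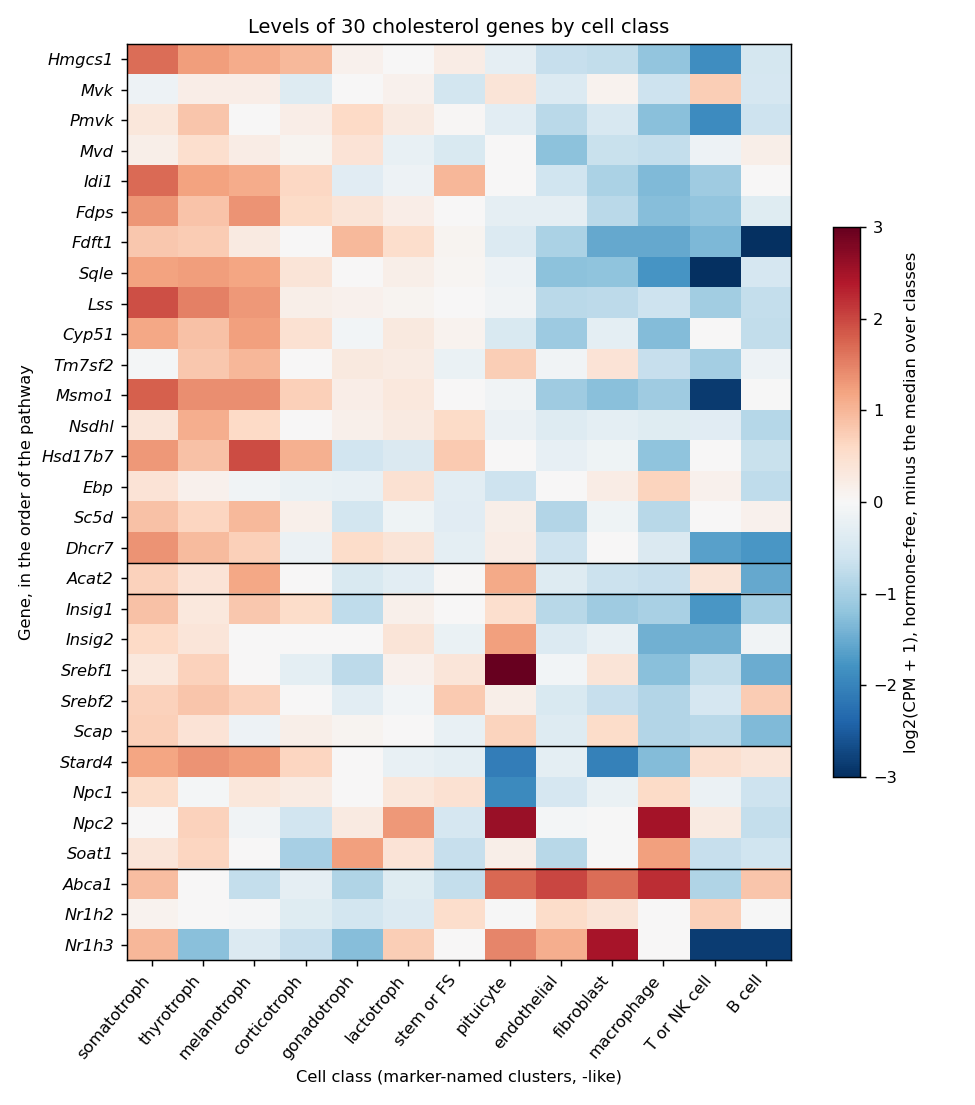
Levels of the 30 members (rows, by role, with lines between synthesis enzymes, Acat2, sterol sensing, transport and storage, and export) in 13 cell classes (columns) as log2(CPM + 1) without hormone genes, minus the median over the classes. Red is above the median: the Hmgcs1, Idi1, Lss and Msmo1 rows are red in the somatotroph, thyrotroph and melanotroph columns, Npc2 stands out in pituicytes and macrophages, and Srebf1 in pituicytes (504 CPM).

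A gene was said to lead in a class when its CPM was highest there in all 4 sets, among 12 classes with at least 20 cells in each set. Of the 30 members 6 led in a class with hormone genes out of library size, while 33.2% of 16974 genes did. They were Pmvk in thyrotroph-like, Hsd17b7 in melanotroph-like, Dhcr7 in somatotroph-like, Npc2 and Abca1 in macrophage or microglia-like, and Nr1h3 in fibroblast-like cells. With hormone genes in library size 6 led as well, against 32.2% of all genes, with Fdps in melanotroph-like cells in place of Dhcr7. Dhcr7 was the 1 member leading in somatotroph-like cells, where 2.75% of all genes led, and with hormone genes in none did, against 0.442%. Without barcode set 1 the count was 10 (40.7% of all genes), without set 2 it was 10 (39.8%) and without set 3 it was 9 (38.9%). Somatotroph-like cells then led for 3 members each time, against 3.44%, 3.45% and 3.40% of all genes. With all class sums thinned to the depth of the smallest, 1 member led in a class. The share was 8.03% over all genes with any UMI left. That base includes genes with very few UMIs, so this share is not comparable with the 33.2%.

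Some levels may include reads of other genes. In a comparison of the last 500 bases of transcripts (GENCODE vM21), 47.5% of the 60-base words of Fdps, 38.1% of Idi1, 29.1% of Acat2 and 15.2% of Fdft1 were also in other genes. The level and class order of these 4 members are therefore uncertain. Tm7sf2 shares 6.84% of its words with the overlapping gene Vps51. Exons of Fdft1 overlap Ctsb on the other strand, those of Cyp51 overlap Akap9 and those of Npc1 overlap Rmc1, and the sources used here do not say whether counting used strand.

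Single somatotrophs were taken as cells with at least 25% of their UMIs from Gh, the growth hormone gene. There were 13259 such cells, with 3201, 3116, 3325 and 3617 in sets 1 to 4. Of these, 11722 were in somatotroph-like clusters and 1046 in unnamed clusters led by mitochondrial or other genes. The threshold cut through a continuum, with 1206 cells at 25 to 30% and 1002 cells at 20 to 25%. To compare cells at 1 depth, each was thinned to 3000 UMIs without hormone genes, which left out 2002 shallower somatotrophs and 987 lactotroph-like cells.

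Synthesis transcripts varied widely between single somatotrophs. The 17 enzymes together gave a mean of 4.42 UMIs of 3000 in 11257 somatotrophs and 2.14 in 7236 lactotroph-like cells treated alike. Sets 1 to 4 had means of 3.78, 3.36, 5.18 and 5.27 in somatotrophs and of 2.10, 1.98, 2.21 and 2.25 in lactotroph-like cells. The variance was 3.66 times the mean in somatotrophs, where pure counting error gives 1, and 1.92 times in lactotroph-like cells. Within single sets it was 2.76 to 4.20 times in somatotrophs and 1.62 to 2.05 times in lactotroph-like cells. At equal relative spread this measure rises with the mean, which was higher in somatotrophs, so it does not rank the spread of the cell types. No enzyme UMI was seen in 7.53% of somatotrophs and in 17.9% of lactotroph-like cells, while 1 somatotroph had 43. Without thinning, no enzyme UMI was seen in 5.92% of somatotrophs and 10.5% of lactotroph-like cells. The values form one peak with a long upper tail and no separate second group in any set.

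**Figure D3:**
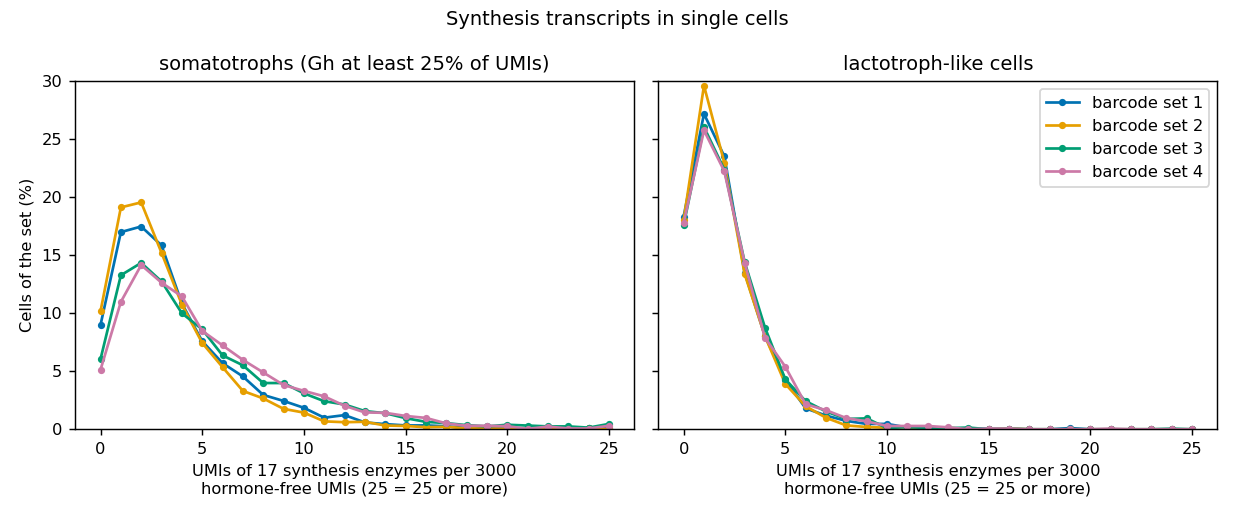
Share of cells (y axis, % of each barcode set) by the number of UMIs of 17 synthesis enzymes in 3000 hormone-free UMIs (x axis, 25 standing for 25 or more), for somatotrophs (left) and lactotroph-like cells (right). The 4 somatotroph lines have long upper tails and means from 3.36 to 5.27 UMIs; the lactotroph-like lines nearly coincide, with means from 1.98 to 2.25 UMIs.

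The spread of each gene was measured as the squared coefficient of variation beyond counting error (CV2), called at 0.25 or more, in genes with a mean of at least 0.1 UMI per cell. Of 25 members tested 14 were called, and 29.3% of 8454 genes were. Lss had a CV2 of 3.08, Hsd17b7 of 2.48, Hmgcs1 of 1.83, Idi1 of 1.47 and Stard4 of 1.43. Dhcr7, Acat2, Cyp51, Sc5d, Insig1, Sqle, Msmo1 and Fdps lay between 0.77 and 1.29. Srebf1 was called at 0.36, although set 2 alone gave -0.0027, and Abca1 fell just short at 0.2497. Ebp and Nr1h2 varied hardly more than counting error, at 0.0055 and 0.0047. Mvk, Mvd, Tm7sf2, Nsdhl and Nr1h3 were below the minimum level.

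The members called by CV2 also varied together, except Srebf1. For each gene, cells of a set were ranked by the summed UMIs of the other synthesis enzymes, and its level in the top quintile was divided by that in the bottom quintile. The ratio was at least 1.5 in 13 of 25 members and in 3.32% of 8454 genes, and all 13 passed 1.5 in each of the 4 sets. The median ratio was 3.47 over the 13 enzymes tested and 0.94 over all genes tested. Hmgcs1 had 784 CPM in the top and 156 CPM in the bottom quintile, a ratio of 5.02, with 5.07, 4.83, 5.42 and 4.70 in the sets. Idi1 had 265 CPM in the top and 47.2 CPM in the bottom quintile, a ratio of 5.62. Lss likewise had a ratio of 5.62, from 3.95 to 11.4 over the sets, and Hsd17b7 of 6.66, from 3.44 to 9.43. Hsd17b7, Lss, Idi1 and Hmgcs1 took places 1, 3, 4 and 7 among all 8454 genes. The place of Hsd17b7 rests on few UMIs, with a mean of 0.114 per cell, near the minimum of 0.1, and 5.41 CPM in the bottom quintile.

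The other enzymes called were Cyp51 (3.90), Msmo1 (3.50), Sqle (3.47), Sc5d (3.45), Fdps (3.07) and Dhcr7 (1.76). Stard4 reached 4.15, with 101 CPM in the top and 24.3 CPM in the bottom quintile, Insig1 reached 3.54, with 411 CPM in the top and 116 CPM in the bottom quintile, and Acat2 reached 2.52. So a sterol carrier, a sterol sensor and the thiolase, none of them part of the ranking sum, varied with the enzymes. The correlations with the sum were modest, from 0.07 for Dhcr7 to 0.40 for Hmgcs1 over 11257 cells that share dissociation and library. Single cells hold few UMIs of each gene, and the part of this in the size of the correlations was not tested.

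The remaining 12 tested members had ratios from 0.82 to 1.48. They include 3 enzymes, Fdft1 (1.36), Pmvk (1.08) and Ebp (1.01). The SREBP genes themselves differed less than their pathway, with 1.48 for Srebf2 and 1.16 for Srebf1, and Scap had 1.05. Insig2 had 107 CPM in the top and 131 CPM in the bottom quintile, a ratio of 0.82, while its relative Insig1 was among the genes called. Npc1 (0.97), Npc2 (0.90), Soat1 (0.93), Abca1 (0.89) and Nr1h2 (0.98) did not reach the threshold either.

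**Figure D4:**
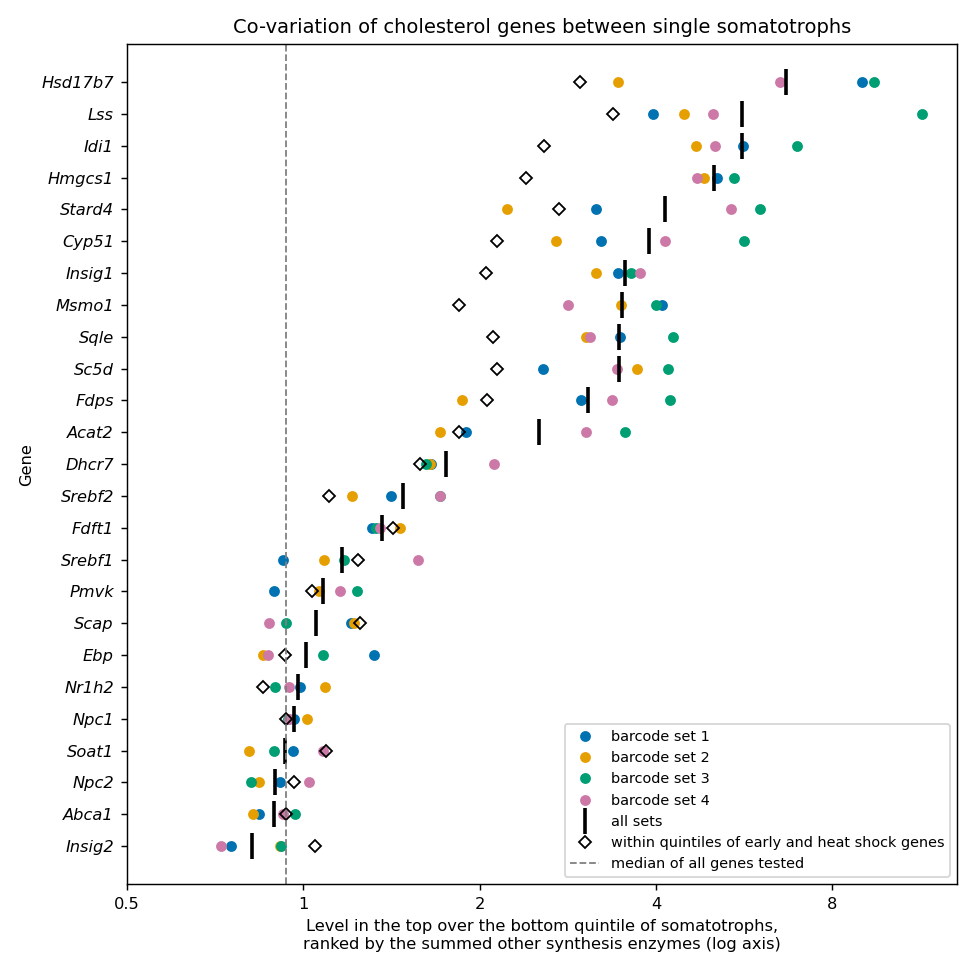
Level of each tested member in the top over the bottom quintile of single somatotrophs ranked by the other synthesis enzymes (x axis, log scale), for each barcode set (points), all sets (bars) and when ranked within quintiles of immediate early and heat shock genes (diamonds). From Dhcr7 upward the 13 called members stand at 1.76 to 6.66, and the other 12 at 0.82 to 1.48; the dashed line is the median of all genes, 0.94.

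Pairs among the members with a large spread varied together as well. Among 10 members with a CV2 of at least 0.25 and a mean of at least 0.3 UMI, the correlation corrected for counting error ranged over the 45 pairs from 0.34 for Fdps and Lss to 0.61 for Idi1 and Cyp51, with a median of 0.49. The medians within sets were 0.53, 0.49, 0.51 and 0.45. These 10 members were chosen by spread in the same cells and all were called by the quintile ratio. Their pairs are therefore not independent of those results. Over all 171 pairs of the 19 members with a mean of at least 0.3 UMI, values ran from -0.23 for Srebf2 and Npc2 to 0.70 for Fdft1 and Scap. Both ends are uncertain, since the correction divides by a spread that was small in these genes. CV2 was 0.125 for Fdft1, 0.061 for Scap, 0.17 for Srebf2 and 0.088 for Npc2. Before that division the covariance, relative to the means, was 0.061 for Fdft1 and Scap, against 0.72 for Idi1 and Cyp51. Pairs of other genes were not computed.

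Genes outside the list whose levels followed the enzyme sum most closely across 11257 thinned somatotrophs were stress and early response genes. Among the 10 with the highest correlation were Dnajb1 (0.48), Jun (0.42), Fos (0.41), Junb (0.39), Egr1 (0.39), Hsp90aa1 (0.39), Hspa8 (0.38), Zfp36 (0.38) and Fosb (0.38). Dnajb1, Hsp90aa1 and Hspa8 encode heat shock chaperones, and Jun, Fos, Junb, Egr1 and Fosb immediate early transcription factors. Of the immediate early list, 15 of 16 tested genes had a ratio of at least 1.5, and of the heat shock list 11 of 12. Of the unfolded protein response 2 of 6 did, and of 11 fatty acid synthesis genes, which SREBP-1 is known to control, 2 did, Scd2 (1.64) and Scd1 (1.61). None of 20 tested genes among 30 other sterol pathway genes did, and their median was 0.96.

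These genes, depth and mitochondrial share moved with the quintiles in every set. In set 1 immediate early genes had 43454 CPM in the top and 14694 CPM in the bottom quintile, and heat shock genes 18388 CPM in the top and 5759 CPM in the bottom quintile. Over the sets, the immediate early sum was 38037 to 49482 CPM in top and 14694 to 19582 CPM in bottom quintiles. The heat shock sum was 18388 to 23088 CPM in top and 5759 to 9304 CPM in bottom quintiles. Median UMIs before thinning were 11876 to 13097.5 in the top and 9500 to 10558 in the bottom quintiles. The mitochondrial share was 0.598 to 0.85% in the top and 0.776 to 1.02% in the bottom quintiles. The part of depth and mitochondrial share was not tested.

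The sum of the enzymes was higher in each successive quintile of the summed 29 immediate early and heat shock genes, in all sets. From the lowest to the highest quintile it was 578, 750, 1044, 1581 and 2346 CPM in set 1 and 606, 762, 987, 1287 and 1960 CPM in set 2. Set 3 had 724, 1056, 1559, 2211 and 3090 CPM, and set 4 had 847, 1194, 1699, 2129 and 2919 CPM. When cells were ranked by the enzymes only within these quintiles, 13 of 25 members had a ratio of at least 1.5, against 0.686% of all genes. The median over the enzymes tested was then 2.11, and over all genes 1.00. Hmgcs1 had a ratio of 2.40, Idi1 of 2.57, Lss of 3.39, Stard4 of 2.73 and Insig1 of 2.05. All 13 ratios were smaller than without this grouping, and all were above 1.5. Of the 25 members, 14 had a ratio that moved by more than its standard deviation over the sets. The part of early and heat shock genes in the co-variation was not tested.

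**Figure D5:**
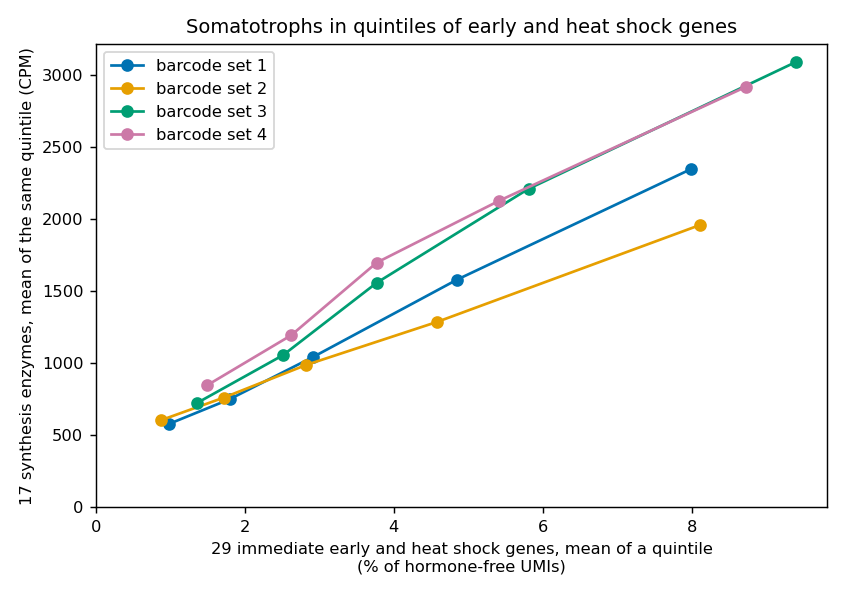
Mean level of 17 synthesis enzymes (y axis, CPM) against that of 29 immediate early and heat shock genes (x axis, % of hormone-free UMIs) in quintiles of somatotrophs ranked by those 29 genes, one line per barcode set. Each line climbs from left to right, in set 1 to 2346 CPM and in set 3 to 3090 CPM.

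The barcode sets differed in somatotrophs for the same genes. The highest set was at least 1.5 times the lowest for 12 of 25 members, and for 5.15% of 8454 genes. Each of the 12 was also called by the quintile ratio and had its lowest level in set 2. Hmgcs1 had 319, 265, 546 and 511 CPM in sets 1 to 4, a highest over lowest ratio of 2.06. Idi1 had 117, 65.8, 177 and 188 CPM, a ratio of 2.85, and Insig1 had 202, 149, 302 and 298 CPM, a ratio of 2.03. Ebp was level, at 49.8, 50.1, 48.7 and 50.6 CPM. Of the immediate early genes 7 of 16 tested, and of the heat shock genes 5 of 12, also differed at least 1.5 times between sets, and their part in the set differences was not tested. Whether diet, library or handling goes with these set differences cannot be told apart, since no label ties a set to a library.

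Lactotroph-like cells differed less between sets, and members varied together between single cells there as well. Between their sets 1 of 22 tested members, Idi1 with 33.9, 30.2, 42.3 and 45.6 CPM, reached 1.5, and 2.72% of 7965 genes did. By the quintile ratio 10 of 22 members were called, against 1.49% of genes, with 2.81 for Hmgcs1, 3.20 for Idi1 and 2.05 for Insig1. Of the members tested in both cell types, 9 were called in both, which is 9 of the 10 called in somatotrophs and 9 of the 10 called in lactotroph-like cells. Dhcr7 was called in somatotrophs (1.76) and not in lactotroph-like cells (1.00), while Srebf2 was called in lactotroph-like cells (1.53) and not in somatotrophs (1.48). By CV2 14 of 22 were called, against 29.5% of genes. CV2 was higher than in somatotrophs for some members and lower for others. Hmgcs1 had 2.96 against 1.83 in somatotrophs and Idi1 2.27 against 1.47, while Sc5d had 0.58 against 0.88 and Sqle 0.78 against 0.83. The differences in ratio and CV2 between the cell types were not tested.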

How the data were processed

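The authors deposited UMI counts per gene and barcode in 1 matrix of all libraries, written by Cell Ranger 8.0.1 per the file headers. The submitters' processing notes also list Seurat. The sources used here do not name the genome build or annotation. The members, gene lists and tests were chosen with earlier results of these data known. Total UMIs were 346690898 in 40406 barcodes.

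Barcodes under 500 UMIs or 250 genes, or above 25% mitochondrial UMIs (567), and doublets called by Scrublet (scanpy 1.11.5, expected rate 0.08; 3632, 9.12%) were removed. Cells were scaled to 10000, clustered with the Leiden method (igraph 0.11.9, resolution 1.0, 15 neighbours, 30 principal components of 2000 genes variable within sets), without the members, the other sterol pathway genes and the fatty acid synthesis genes. Clusters were named from fixed markers, with thresholds set after seeing the data: at least 3 markers, and at least 50% of a class's markers, at log2 fold 0.5 and in 25% of cells. Unnamed clusters held 3483 cells. The names were rebuilt here and 79 of 86 markers of named classes were highest in their own class.

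UMIs were summed per class and set. Exact Poisson intervals (95%) cover counting error only. Genes with at least 200 UMIs entered the leading rule, except with thinned sums, where any UMI sufficed. All 30 members are named by rule; of other genes, the 10 most correlated with the enzyme sum (1 is not reported here), and list genes with the highest ratios. Steps were tested on simulated data. The planned diet comparison was not made. Computations used pandas 2.3.3, scipy 1.17.1 and numpy 2.4.6.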

Additional observations from a re-analysis of the deposited data

How the results depend on the processing

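No paired analysis was possible because barcodes carry no library, so no result compares diets. The summed enzymes of somatotroph-like cells, 1614 CPM, were 898 CPM with hormone genes in library size, 1595 CPM with a stricter cell filter (1000 UMIs, 500 genes, 10% mitochondrial), 1656 CPM with class sums thinned, and 1505 to 1758 CPM without each barcode set in turn. The 6 members leading in a class became 10 with the stricter filter (33.9% of all genes) and 3 when the lead had to be 1.2 times (20.02%). The count was 6 to 10 without each set (38.9 to 40.7%). With thinned sums 1 member led, against 8.03% of all genes with any UMI left. The 14 members called by CV2 and the 13 called by ratio stayed within 1.5 times of these counts under every alternative run. The ratio count was 10 to 14, with 10 in lactotroph-like cells, and the CV2 count 10 to 15, with 10 at a minimum of 0.3 UMI, where fewer genes were tested. Set 2 alone gave Srebf1 a CV2 of -0.0027, and lactotroph-like cells gave Dhcr7 a ratio of 1.00 (0.997). The cause was not tested. Ranking within quintiles of early and heat shock genes, the clusters alone and lactotroph-like cells were alternatives added after seeing the data. Inside somatotroph-like clusters alone, 14 members were called by CV2 (28.4% of all genes) and 14 by ratio (3.46%). Low counts limit Mvk, Mvd, Tm7sf2, Nsdhl and Nr1h3.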
